A study of Mus musculus with 6 samples.

Results

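Transcripts of 33 genes of glucose metabolism and the hypoxia response were compared between virus-specific CD4+ T cells that carried high or low amounts of CD25, the interleukin-2 receptor subunit that raises its affinity. The genes were chosen by name for glucose uptake, glycolysis, lactate and pyruvate handling, the hypoxia-inducible factor and its targets, and the pentose phosphate pathway. All 33 have a row among the 15445 genes of the deposited count table, and all 33 passed the filter on low counts, which left 12987 genes. RNA sequencing covered 3 CD25-high and 3 CD25-low libraries, numbered 1 to 3 in each group. Both groups were monoclonal transgenic CD4+ T cells from the spleens of C57BL/6 mice infected 5 days earlier with LCMV, lymphocytic choriomeningitis virus, and were sorted by flow cytometry on Thy1.1, CD4 and CD25. The labels name neither the transgene nor the age of the mice, and they leave unsaid whether each library is a separate animal, so a p-value here measures library-to-library spread that may be technical.

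Glycolysis splits glucose into pyruvate in a preparatory stage that spends ATP and a payoff stage that returns it. T cells that divide after activation take up more glucose and release much of the carbon as lactate, and interleukin-2 signalling is one of the inputs known to sustain this. The transcription factor HIF-1, whose oxygen-regulated subunit is the product of Hif1a, induces many of the same genes together with its own hydroxylases, and the pentose phosphate pathway diverts glucose 6-phosphate to NADPH and ribose.

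Total counts ranged from 16787233 to 18847288 in CD25-high and from 18810599 to 23567066 in CD25-low libraries. The 33 genes together took 0.302% to 0.392% of the counts in CD25-high and 0.276% to 0.381% in CD25-low libraries. Mitochondrial ribosomal RNA took 29.3% to 34.0% in CD25-high and 31.7% to 35.3% in CD25-low libraries. The totals, shares and CPM given here include it. Il2ra, the sort marker, had 432 to 1540 CPM across CD25-high and 20.7 to 35.7 CPM across CD25-low libraries, where CPM is the count relative to the library total after TMM scaling. All 11 CD4+ T cell markers had rows, with summed levels of 3820 to 4090 CPM across CD25-high and 4060 to 5320 CPM across CD25-low libraries. With edgeR and libraries of the same number paired (the replicate block), 3 of the 11 fell in CD25-high cells and 0 rose. Of all genes, 2.90% fell and 1.73% rose in that fit. The 3 were Cd3d (log2 fold change -1.01, adjusted p 0.0134), Cd3g (-0.86, adjusted p 0.0135) and Trbc1 (-0.89, adjusted p 0.00579). The 8 regulatory T cell markers, which include Il2ra, summed to 760 to 1990 CPM across CD25-high and 511 to 716 CPM across CD25-low libraries. Without Il2ra the other 7 summed to 327 to 455 CPM across CD25-high and 482 to 695 CPM across CD25-low libraries, the opposite order with no overlap. Foxp3, their defining factor, had 2.29 to 5.78 CPM across CD25-high and 0.744 to 2.30 CPM across CD25-low libraries. Ikzf2 fell, with means of 98.8 ± 13.6 CPM across CD25-high and 261 ± 58.8 CPM across CD25-low libraries (log2 fold change -1.40, edgeR adjusted p 0.0240 without the block). Nrp1 was lower without overlap and not called (19.3 to 37.9 CPM across CD25-high and 42.2 to 48.3 CPM across CD25-low libraries, edgeR adjusted p 0.490). Markers of CD8+ T and natural killer cells, 3 of 7 with rows and none for Cd8a and Ncr1, summed to 3.94 to 9.92 CPM across CD25-high and 3.18 to 4.64 CPM across CD25-low libraries. The part of all these cells in the results below was not tested.

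Most genes of glucose metabolism passed no test between the groups, and those that did hold a hexokinase and regulators. With edgeR, the inducible hexokinase gene Hk2 was higher and Pdk1, Egln3 and Hif1a were lower in CD25-high cells when same-numbered libraries were paired. No label states that pairing. None of these genes passed in the edgeR fit that leaves the numbers out. DESeq2, which also left the numbers out, called Hk2, Pdk1 and Egln3 but not Hif1a. In the paired fit, edgeR's quasi-likelihood test with the replicate number as a block, 1 of the 33 genes rose and 3 fell at a Benjamini-Hochberg adjusted p of 0.05. Of all 12987 genes, 1.73% rose and 2.90% fell there. In the fit without the block, which is the main test, 0 of the 33 genes passed, against 0.655% of all genes (0.154% higher, 0.501% lower). At an unadjusted p under 0.05 it held 7 of the 33 (21.2%), against 11.1% of all genes. With the block that number was 10 of the 33, against 18.1% of all genes. DESeq2 called 3 of the 33, Hk2 as higher and Pdk1 and Egln3 as lower. Of the 15429 genes that it tested, it called 2.44% (0.752% higher, 1.69% lower). Some of these genes with low counts, such as Ebf1, got no adjusted p and could not be called, which lowers that share. All 33 members had an adjusted p. The libraries of the groups did not overlap for 3 genes that were higher and 4 that were lower in CD25-high cells, which is 21.2% of the 33 and compares with 16.9% of all genes (7.41% higher, 9.54% lower). The median log2 fold change, CD25-high over CD25-low, was -0.02 over the 33 genes and 0.01 over all tested genes, and 21 of the 33 lay within 0.5 of 0.

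**Figure D1:**
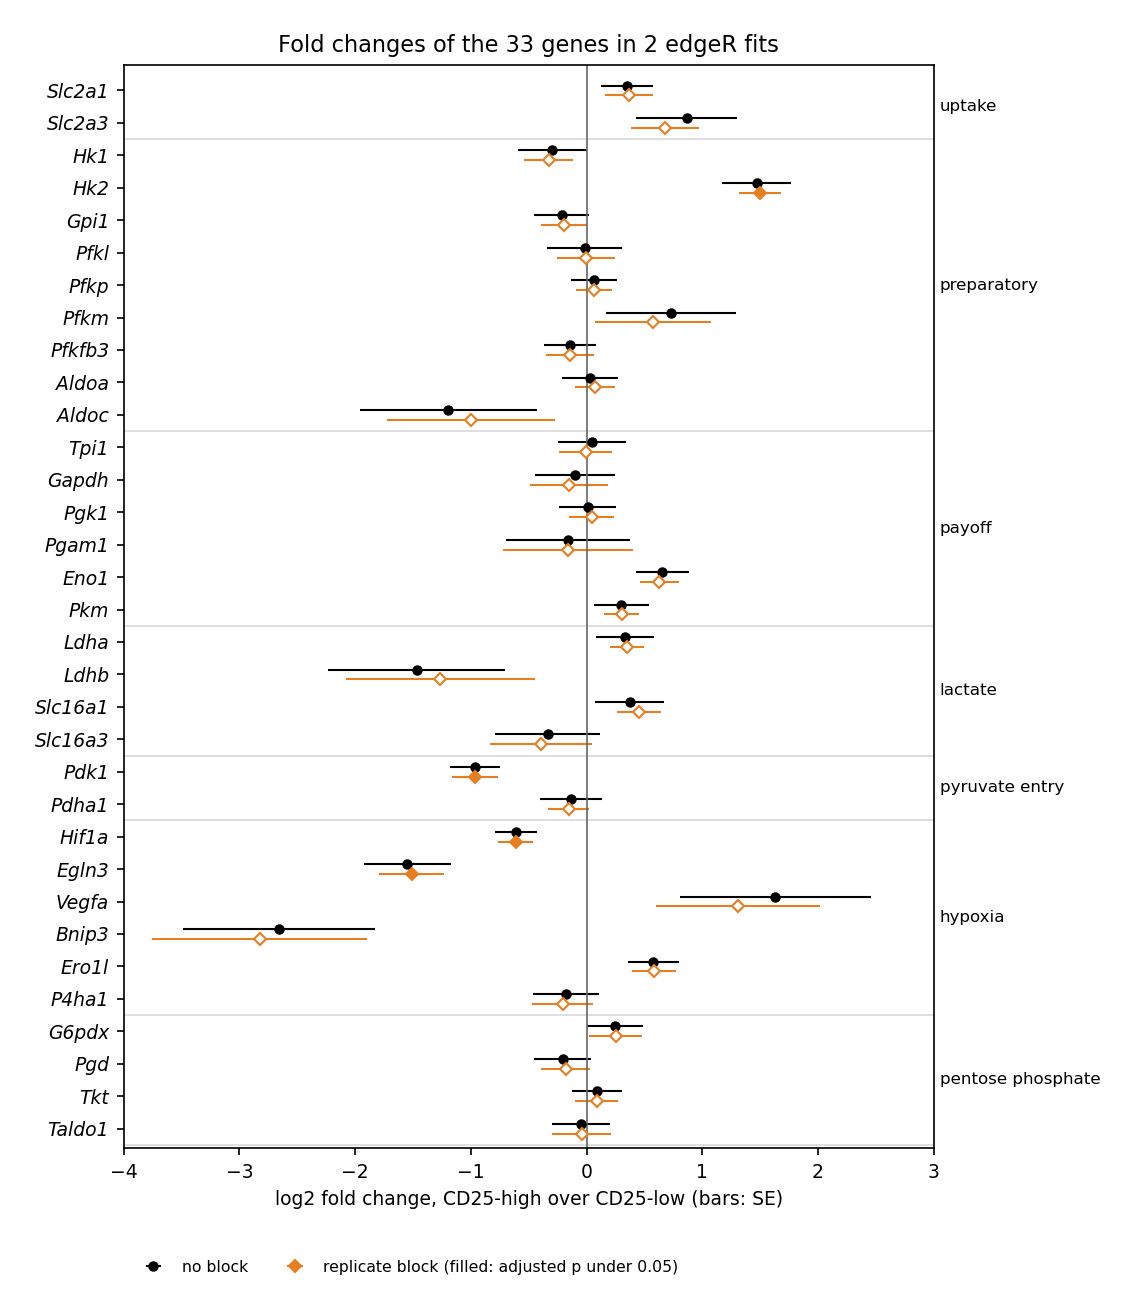
Log2 fold change of CD25-high over CD25-low for the 33 genes, grouped by role from top to bottom, with SE bars from the edgeR fit without the block (black circles) and with the replicate block (orange diamonds, filled at an adjusted p under 0.05). Filled diamonds mark Hk2 at 1.5, Pdk1 at -0.96, Hif1a at -0.61 and Egln3 at -1.51, and most other genes lie near 0.

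Neither glucose transporter passed the test. Slc2a1, which encodes GLUT1, the main glucose importer of activated T cells, stood at 44.3, 39.8 and 45.5 CPM across CD25-high libraries 1, 2 and 3, against 27.7, 33.4 and 40.6 CPM across CD25-low libraries 1, 2 and 3. Its groups overlapped, with a log2 fold change of 0.35 ± 0.23 (SE) and an edgeR adjusted p of 0.631. Slc2a3, which encodes the high-affinity transporter GLUT3, stood at 12.9, 42.6 and 52.8 CPM across CD25-high libraries, against 15.9, 19.1 and 24.4 CPM across CD25-low ones. CD25-high library 1 was below all CD25-low libraries, and the other CD25-high libraries were above them. Slc2a3 had a log2 fold change of 0.87 ± 0.44 and an edgeR adjusted p of 0.514 without the block (0.244 with it). Without both libraries numbered 1 it was called, with a log2 fold change of 1.13 and an edgeR adjusted p of 0.0326 when unblocked and 0.0229 when blocked. Both fits leave out the only pair in which Slc2a3 was lower in CD25-high cells. Differences within pairs 1, 2 and 3 were -0.31, 1.16 and 1.11 on the log2 scale. The unblocked form was chosen after seeing the data. For Slc2a3 the libraries numbered 1 differed from the others by -1.12 ± 0.33 on the log2 scale in a fit that kept the group (edgeR adjusted p 0.0566).

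Among the 9 genes of the preparatory stage, Hk2 rose with the replicate block and 8 did not pass. In that fit 1.73% of all genes rose and 2.90% fell. Hexokinases trap glucose in the cell as glucose 6-phosphate, and Hk2 is the inducible form. Hk2 stood at 135, 79.1 and 108 CPM across CD25-high libraries 1, 2 and 3, against 55.2, 28.6 and 32.4 CPM across CD25-low libraries 1, 2 and 3. All CD25-high libraries were above all CD25-low ones, and library 1 was the highest within each group. The means were 107 ± 27.9 CPM across CD25-high and 38.7 ± 14.4 CPM across CD25-low libraries (SD, n = 3 each). The log2 fold change was 1.47 ± 0.30 with an edgeR adjusted p of 0.0684, and 1.5 ± 0.18 with 3.2e-04 with the block. Differences within same-numbered pairs were 1.29, 1.47 and 1.74 on the log2 scale. The call with the block held with any pair left out (highest adjusted p 0.00306), and without the block Hk2 was called when CD25-low library 1 was left out (adjusted p 0.0389). Hk2 was also the only gene of the 33 that differed between the libraries numbered 1 and the others in a fit that kept the group (log2 difference 0.69 ± 0.19, edgeR adjusted p 0.0446), against 7.17% of all genes. Hk2 (ENSMUSG00000000628) spans bases 82725025 to 82774454 of chromosome 6 (mm10, minus strand), and shares no exonic base with another annotated gene.

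Hk1, the constitutive hexokinase, stood at 21.4, 40.1 and 40.9 CPM across CD25-high libraries, against 33.6, 39.3 and 52.9 CPM across CD25-low ones, which overlapped (log2 fold change -0.30 ± 0.30, edgeR adjusted p 0.783). Gpi1, which isomerises glucose 6-phosphate to fructose 6-phosphate, averaged 66.7 ± 8.91 CPM across CD25-high and 77.5 ± 20.4 CPM across CD25-low libraries (SD, n = 3 each). The phosphofructokinase subunits, which catalyse the committed step, did not pass. Pfkp, the platelet-type subunit, stood at 318, 300 and 393 CPM across CD25-high libraries, against 378, 288 and 301 CPM across CD25-low ones, a log2 fold change of 0.06 ± 0.20. The liver-type Pfkl averaged 20.2 ± 5.47 CPM across CD25-high and 20.4 ± 6.55 CPM across CD25-low libraries. For the muscle-type Pfkm the values were 7.31, 2.08 and 3.72 CPM across CD25-high libraries, against 3.23, 2.0 and 2.69 CPM across CD25-low ones, so the higher CD25-high mean rested on libraries 1 and 3. Pfkfb3, which makes the allosteric activator of phosphofructokinase, averaged 31.3 ± 3.53 CPM across CD25-high and 34.6 ± 3.59 CPM across CD25-low libraries. Aldoa, the main aldolase of T cells, averaged 194 ± 13.9 CPM across CD25-high and 190 ± 56.5 CPM across CD25-low libraries. Aldoc, the aldolase best known from brain, was near the lower end of detection, with 9, 23 and 23 counts in CD25-high and 20, 30 and 111 counts in CD25-low libraries.

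**Figure D2:**
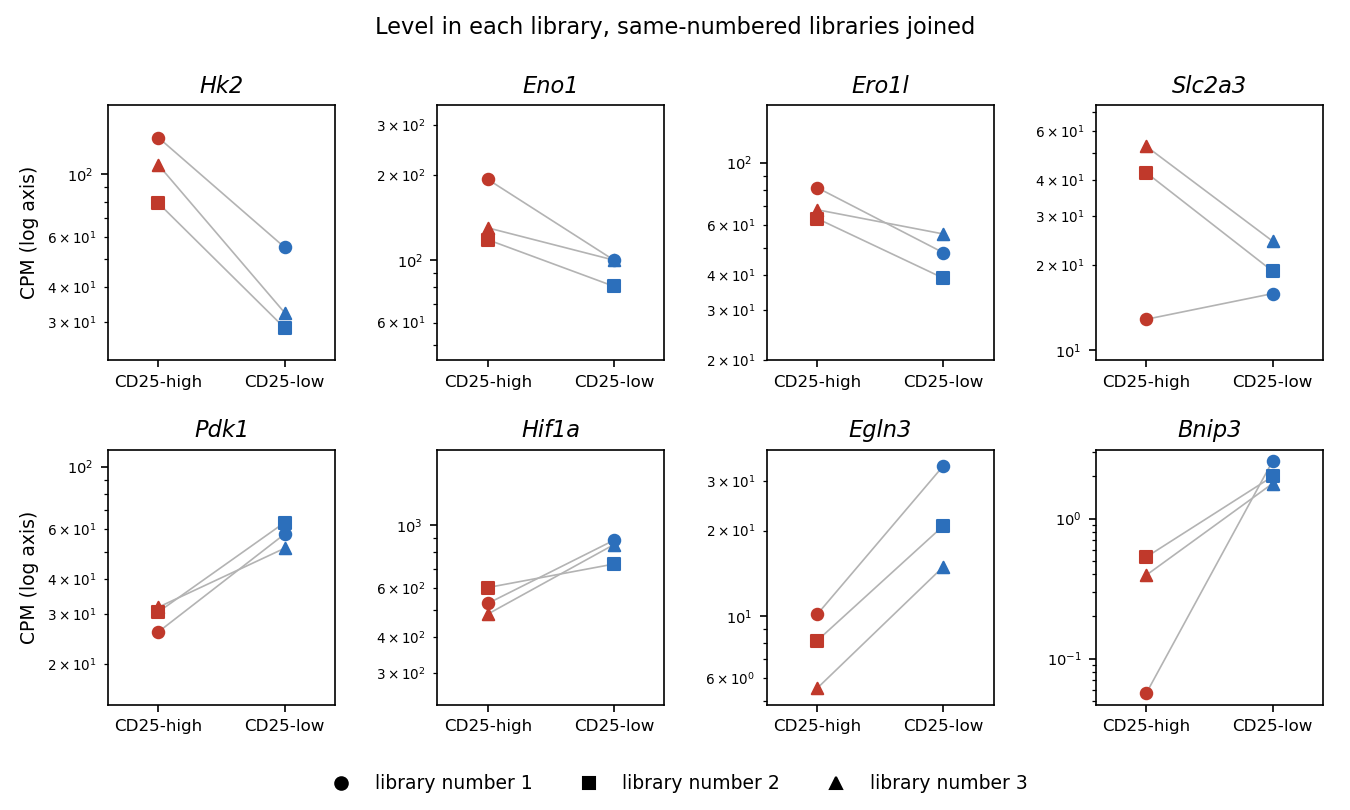
CPM (log axis) of 8 genes in CD25-high (left, red) and CD25-low (right, blue) libraries, with same-numbered libraries joined by a line and marked by the same symbol. Hk2, Eno1 and Ero1l were higher and Pdk1, Hif1a, Egln3 and Bnip3 lower in every CD25-high library than in any CD25-low one, and Slc2a3 went the other way in pair 1.

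Alternative members of the enzyme and transporter families were compared by the ratio of their counts within a library, whose difference between groups depends on neither library scaling nor gene length and shows unequal change alone. The ratio itself does depend on the lengths of both genes. The smallest exact permutation p that 3 against 3 libraries can give is 0.1, so no ratio could pass 0.05. Over 7 ratios, that of Hk2 to Hk1 was the only one whose groups did not overlap. Its log2 values were 2.65, 0.98 and 1.4 in CD25-high and 0.72, -0.46 and -0.71 in CD25-low libraries. The difference was 1.83 (two-sided exact permutation p 0.1, adjusted p over the 7 ratios 0.525), and it was positive whichever library was left out (1.34 to 2.26). Per length, Hk2 made up 80.9% ± 8.26 of Hk1 and Hk2 together in CD25-high and 55.9% ± 12.5 in CD25-low libraries (SD, n = 3 each). The log2 ratio of Ldhb to Ldha was -10.68 ± 0.52 in CD25-high and -9.10 ± 0.88 in CD25-low cells (SD, n = 3), a difference of -1.58 with overlapping groups (exact permutation p 0.2), and rested on 9 to 60 counts of Ldhb per library. The ratios of Aldoc to Aldoa and of Slc16a3 to Slc16a1 differed by -1.07 and -0.85 (exact permutation p 0.3 each). The adjusted p of these and of Ldhb to Ldha was 0.525. Pfkp to Pfkl and Pfkm to Pfkl differed by 0.07 and 0.57 (exact permutation p 0.9 and 0.7). Slc2a1 to Slc2a3 was 1.78, -0.10 and -0.22 in CD25-high and 0.80, 0.80 and 0.73 in CD25-low libraries, so that CD25-high library 1 stood above and the other CD25-high libraries below the CD25-low ones (exact permutation p 0.9). Within pairs 1, 2 and 3, the ratio differed by 1.94, 1.44 and 2.10 for Hk2 to Hk1, by -0.90, -0.77 and -0.90 for Slc16a3 to Slc16a1, by -1.64, -0.88 and -2.23 for Ldhb to Ldha and by -0.89, -0.56 and -1.76 for Aldoc to Aldoa. These 4 ratios had 1 sign in every pair, each with an exact sign-flip p of 0.25, the smallest that 3 pairs can give, and the other 3 ratios had both signs. Leaving out a library turned the sign of the Slc2a1 to Slc2a3 ratio difference (-0.94 to 0.06), of Pfkp to Pfkl (-0.22 to 0.40) and of Pfkm to Pfkl (-0.13 to 1.08).

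**Figure D3:**
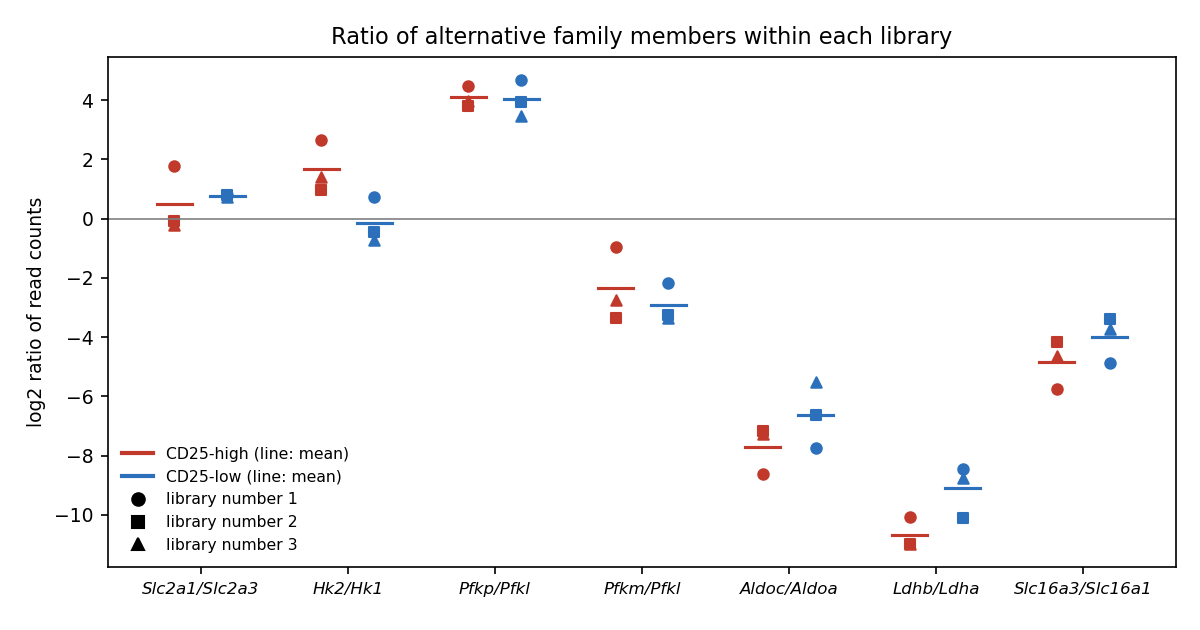
Log2 ratio of read counts of family members within each library, for CD25-high (left of each pair of columns, red) and CD25-low (right, blue) cells, with the group mean as a line and symbols for the library number. The ratio of Hk2 to Hk1 is the only one of the 7 whose groups do not overlap.

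None of the 6 genes of the payoff stage passed in edgeR, with or without the block, or in DESeq2. In edgeR without the block 1 had an unadjusted p under 0.05, against 11.1% of all genes. For 5 of the 6 the log2 fold change lay within 0.5 of 0. Eno1, which encodes enolase, was the exception, at 193, 118 and 130 CPM across CD25-high libraries 1, 2 and 3, against 99.9, 80.7 and 99.9 CPM across CD25-low libraries 1, 2 and 3. The groups did not overlap, library 1 was the highest of the CD25-high ones, and the log2 fold change of 0.65 ± 0.23 had an edgeR adjusted p of 0.321 (0.0520 with the block). The pyruvate kinase gene Pkm stood at 130, 139 and 192 CPM across CD25-high libraries, against 108, 108 and 159 CPM across CD25-low ones, with overlap (0.30 ± 0.24, edgeR adjusted p 0.698). Counts per gene cannot separate its splice forms PKM1 and PKM2. Tpi1, which interconverts the triose phosphates, averaged 51.2 ± 20.7 CPM across CD25-high and 49.5 ± 7.90 CPM across CD25-low libraries (SD, n = 3 each). Pgk1, the first ATP-forming kinase of the pathway, averaged 46.6 ± 4.40 CPM across CD25-high and 46.3 ± 13.4 CPM across CD25-low libraries. Gapdh, which encodes the NADH-forming dehydrogenase, stood at 29.3, 14.3 and 15.5 CPM across CD25-high libraries, against 15.1, 26.6 and 21.7 CPM across CD25-low ones, with opposite directions between pair 1 and the other pairs. Pgam1, phosphoglycerate mutase, had 35 to 53 counts in CD25-high and 44 to 65 counts in CD25-low libraries.

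The 4 genes of lactate formation and export did not pass either. At an unadjusted p under 0.05, edgeR held 0 of them without the block and 2 with it. The shares of all genes there were 11.1% without the block and 18.1% with it. Ldha, which encodes the lactate dehydrogenase subunit that favours lactate formation, stood at 799, 968 and 1260 CPM across CD25-high libraries, against 725, 607 and 1070 CPM across CD25-low ones. Each CD25-high library was above the CD25-low library of its number, by 0.14, 0.67 and 0.23 on the log2 scale, while the groups overlapped (log2 fold change 0.33 ± 0.25, edgeR adjusted p 0.686 unblocked and 0.230 blocked). Ldhb, the subunit that favours lactate use, averaged 0.612 ± 0.129 CPM across CD25-high and 1.70 ± 1.02 CPM across CD25-low libraries (SD, n = 3 each). Slc16a1, which encodes the lactate carrier MCT1, stood at 128, 94.0 and 108 CPM across CD25-high libraries, against 125, 51.3 and 78.7 CPM across CD25-low ones (0.37 ± 0.30, edgeR adjusted p 0.712). Slc16a3, which encodes MCT4, the exporter typical of strongly glycolytic cells, averaged 3.98 ± 1.45 CPM across CD25-high and 5.03 ± 0.811 CPM across CD25-low libraries.

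At the entry of pyruvate into mitochondria, Pdk1 fell in CD25-high cells with the replicate block. It encodes pyruvate dehydrogenase kinase 1, which inhibits pyruvate dehydrogenase and is a known HIF-1 target. Pdk1 stood at 26, 30.6 and 31.8 CPM across CD25-high libraries 1, 2 and 3, against 57.7, 63.4 and 51.4 CPM across CD25-low libraries 1, 2 and 3. The groups were well apart and the spread within each was small, with means of 29.5 ± 3.09 CPM across CD25-high and 57.5 ± 6.04 CPM across CD25-low libraries (SD, n = 3 each). The log2 fold change was -0.96 ± 0.21 with an edgeR adjusted p of 0.0939 (0.0145 with the block, 0.00354 with DESeq2). The call with the block was lost without pair 2 (0.0788). Pdha1, which encodes the catalytic E1 alpha subunit that Pdk1 phosphorylates, averaged 82.1 ± 25.8 CPM across CD25-high and 90.4 ± 20.8 CPM across CD25-low libraries, a log2 fold change of -0.14 ± 0.27. Pdk1 (ENSMUSG00000006494) spans bases 71873224 to 71903858 of chromosome 2 (mm10, plus strand).

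Of the 6 genes of the hypoxia response, Hif1a and Egln3 fell with the replicate block and 4 did not pass, with log2 fold changes of both signs. That fit called 2.90% of all genes as lower and 1.73% as higher. Hif1a stood at 528, 601 and 484 CPM across CD25-high libraries 1, 2 and 3, against 884, 728 and 853 CPM across CD25-low libraries 1, 2 and 3. The groups did not overlap, and pair 2 showed the smallest difference. The log2 fold change of Hif1a was -0.61 ± 0.18 with an edgeR adjusted p of 0.225 (0.0355 with the block), and the call with the block was lost without pair 1 (0.140) or pair 3 (0.188). DESeq2 did not call it (0.104). In these bulk samples fewer cells with a transcript and less of it per cell cannot be told apart.

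Egln3 encodes PHD3, a prolyl hydroxylase that marks HIF alpha subunits for degradation and is itself induced by HIF. It stood at 10.1, 8.15 and 5.53 CPM across CD25-high libraries 1, 2 and 3, against 33.9, 20.8 and 14.9 CPM across CD25-low libraries 1, 2 and 3. Every CD25-high library was below every CD25-low one, and library 1 was the highest in each group. The log2 fold change was -1.55 ± 0.38 with an edgeR adjusted p of 0.127 (0.00712 with the block, 0.00755 with DESeq2), and differences within pairs 1, 2 and 3 were -1.74, -1.35 and -1.43. The call with the block held with any pair left out (highest adjusted p 0.0443). Egln3 (ENSMUSG00000035105) and Hif1a (ENSMUSG00000021109) both lie on chromosome 12, Egln3 on the minus strand from 54178981 to 54203860 and Hif1a on the plus strand from 73901375 to 73947530 (mm10). Hif1a shares 330 exonic bases with Gm15283 on the opposite strand and 148 with Gm49321 on its own, so its count is uncertain to that extent.

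Bnip3, a receptor for mitophagy and a HIF-1 target, had 1, 10 and 7 counts in CD25-high and 47, 47 and 43 counts in CD25-low libraries. The groups were far apart at this low depth, with a log2 fold change of -2.66 ± 0.83, but no fit called it (edgeR adjusted p 0.257, 0.111 with the block, 0.0859 with DESeq2). Of the 50-base words of its transcripts, 47.2% also occur in transcripts of other annotated genes. Ero1l, the oxidase that forms disulfides in the endoplasmic reticulum, went the other way, at 81.6, 63.4 and 68.1 CPM across CD25-high libraries, against 48.0, 39.0 and 55.9 CPM across CD25-low ones, and the groups did not overlap (0.58 ± 0.22, edgeR adjusted p 0.364, and 0.103 with the block). Vegfa, the angiogenic growth factor, had 91, 10 and 67 counts in CD25-high and 30, 14 and 20 counts in CD25-low libraries, so that CD25-high library 2 was below all others (1.63 ± 0.83, edgeR adjusted p 0.515). P4ha1, a subunit of collagen prolyl hydroxylase, averaged 20.8 ± 5.55 CPM across CD25-high and 23.5 ± 2.83 CPM across CD25-low libraries (SD, n = 3 each).

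The sequences upstream of Hk2, the only member that rose with the block, of Pdk1, Egln3 and Hif1a, which fell there, and of Bnip3 are shown because HIF-1 binds the core letters ACGTG and a variant of them, GCGTG, and Hk2 was higher and the others lower in CD25-high cells. Each run is the 250 bases before the RefSeq transcription start (GRCm38.p6), 5′ to 3′ on the gene's own strand, and capitals mark either core on either strand. The windows are chr6:82774455-82774704 (minus strand) for Hk2, chr2:71872974-71873223 (plus) for Pdk1, which has a further start downstream, chr12:54203875-54204124 (minus) for Egln3, chr12:73907617-73907866 (plus) for Hif1a and chr7:138909507-138909756 (minus) for Bnip3.
Hk2: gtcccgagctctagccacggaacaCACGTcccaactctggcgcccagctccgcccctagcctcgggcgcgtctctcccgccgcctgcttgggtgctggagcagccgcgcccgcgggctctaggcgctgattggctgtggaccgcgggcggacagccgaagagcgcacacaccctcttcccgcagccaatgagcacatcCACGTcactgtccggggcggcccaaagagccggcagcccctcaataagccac
Pdk1: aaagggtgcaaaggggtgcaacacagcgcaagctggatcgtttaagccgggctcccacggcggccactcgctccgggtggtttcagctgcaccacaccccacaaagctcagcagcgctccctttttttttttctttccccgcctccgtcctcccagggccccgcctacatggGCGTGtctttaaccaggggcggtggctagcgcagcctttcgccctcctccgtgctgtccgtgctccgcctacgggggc
Egln3: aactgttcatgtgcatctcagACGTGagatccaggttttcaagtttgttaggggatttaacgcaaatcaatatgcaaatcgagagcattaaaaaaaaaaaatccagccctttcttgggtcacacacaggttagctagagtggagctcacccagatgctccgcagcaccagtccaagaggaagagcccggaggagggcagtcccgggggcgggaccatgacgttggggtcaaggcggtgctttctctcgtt
Hif1a: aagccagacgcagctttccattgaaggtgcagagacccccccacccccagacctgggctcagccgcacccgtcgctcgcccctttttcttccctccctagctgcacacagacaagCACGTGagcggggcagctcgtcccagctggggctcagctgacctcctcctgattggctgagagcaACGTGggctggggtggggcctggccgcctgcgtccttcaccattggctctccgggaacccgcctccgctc
Bnip3: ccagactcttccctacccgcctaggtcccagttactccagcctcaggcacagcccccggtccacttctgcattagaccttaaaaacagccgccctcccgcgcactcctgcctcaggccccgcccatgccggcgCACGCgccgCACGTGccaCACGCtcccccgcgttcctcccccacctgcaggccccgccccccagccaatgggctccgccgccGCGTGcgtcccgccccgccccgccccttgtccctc
Stretches in capitals numbered 2 for Hk2, 1 for Pdk1, 1 for Egln3, 2 for Hif1a and 4 for Bnip3, which no fit called. The window at the further Pdk1 start, chr2:71874654-71874903, held neither core. Hif1a and Bnip3 each hold 1 CACGTG, the E-box core, which contains ACGTG. Windows were found for 32 of the 33 genes, all but Slc2a3, with 47 windows in all. For 30 of these 32 genes at least 1 window held a core, so a core does not set the genes shown apart. Either core stood in 38 of these 47 windows (80.9%) and in 38.6% of all 32851 RefSeq windows of the same length, which were not matched on base composition. Some windows of Aldoa, Eno1 and Pfkm overlap each other and share cores, so the windows are not separate units. The members were also chosen by name, in part as targets of the hypoxia-inducible factor. ACGTG stood in 42.6% of the members' and 16.6% of all windows, GCGTG in 57.4% of the members' and 28.2% of all windows, and CACGTG in 12.8% of the members' and 6.02% of all windows. A match is a description of these letters and shows no binding.

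The pentose phosphate genes were the most even set, with all 4 log2 fold changes within 0.5 of 0 and none called by edgeR or DESeq2. None had an unadjusted p under 0.05 in edgeR, against 11.1% of all genes without the block and 18.1% with it. G6pdx, which encodes glucose 6-phosphate dehydrogenase, the first and NADPH-forming step, stood at 78.5, 70.1 and 52.2 CPM across CD25-high libraries, against 46.0, 53.1 and 70.1 CPM across CD25-low ones, higher in CD25-high cells in pairs 1 and 2 and lower in pair 3 (0.25 ± 0.24, edgeR adjusted p 0.777). It shares 418 exonic bases with Ikbkg on the opposite strand. Pgd, the next NADPH-forming enzyme, averaged 66.9 ± 9.73 CPM across CD25-high and 77.3 ± 20.1 CPM across CD25-low libraries (SD, n = 3 each). The carbon-shuffling enzymes transketolase (Tkt) and transaldolase (Taldo1) differed by 0.09 ± 0.22 and -0.05 ± 0.25 on the log2 scale. Taldo1 varied least, at 18.3, 17.3 and 17.4 CPM across CD25-high libraries, against 20.7, 16.9 and 17.2 CPM across CD25-low ones.

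Levels between genes were compared as CPM per kb of exon, using the merged annotated exons of a gene. Ldha was the highest of the 33, with 304 ± 69.7 CPM per kb in CD25-high and 242 ± 72.5 in CD25-low libraries (SD, n = 3 each). Hif1a followed with 91.2 ± 10.1 CPM per kb in CD25-high and 139 ± 14.0 in CD25-low cells, and Aldoa with 66.5 ± 4.76 in CD25-high and 65.2 ± 19.4 in CD25-low cells. From Pkm at a mean of 27.9 CPM per kb over the 6 libraries to Tpi1 at 18.3, the ranges of neighbours in the order overlapped. Gapdh, usually among the most abundant transcripts of a cell, stood at rank 22 of 33 with 4.77 ± 2.02 CPM per kb in CD25-high and 5.11 ± 1.39 in CD25-low cells. Pgam1 stood at rank 27 with 1.17 ± 0.305 in CD25-high and 1.31 ± 0.344 in CD25-low cells. Both belong to the genes whose sequence is widely shared. Of 50-base words, 25.1% of Gapdh, 36.2% of Pgam1, 53.9% of Pgk1, 26% of Eno1 and 25.8% of Pkm also stood in transcripts of other annotated genes. The main sharers were Pgam1-ps2 for Pgam1, Pgk1-rs7 for Pgk1, Eno1b for Eno1 and Gm49759, which overlaps Pkm on its strand, for Pkm, and 223 genes shared words with Gapdh. For Hk2, Pdk1 and Egln3 that share was 0. Exons of other annotated genes on the opposite strand overlapped Slc2a1 (105 bases), Hk1 (157), Gpi1 (741), Pfkp (748), Pdha1 (603) and Bnip3 (504), and on the same strand Pfkm (341) and Pkm (767), and without a stated strand setting reads of such pairs cannot be told apart. No source used here gives the read length or says how reads with several matches were counted, so the levels of Gapdh, Pgam1, Pgk1, Eno1, Pkm and Bnip3 are uncertain, and the part of shared sequence in them was not tested.

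**Figure D4:**
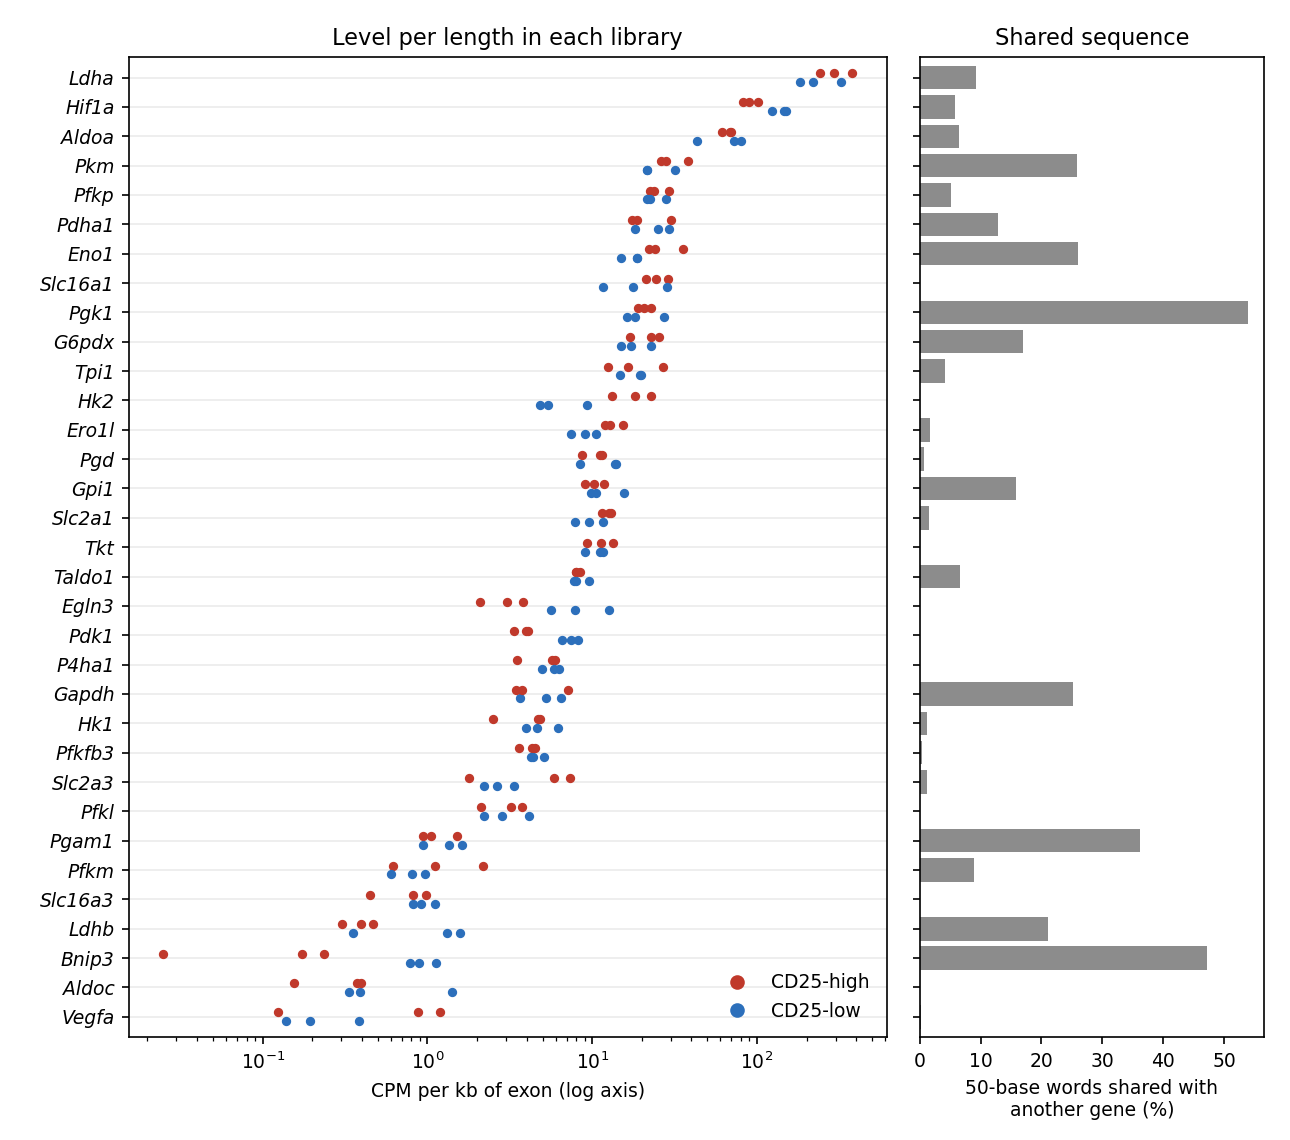
Left, CPM per kb of exon (log axis) of the 33 genes in each CD25-high (red, upper row of each gene) and CD25-low (blue, lower row) library, ordered by the mean over 6 libraries. Right, the share of 50-base words that also occur in transcripts of another gene, from 0 for Hk2 to 53.9% for Pgk1.

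A further 79 genes of the same pathways were examined, of which 66 had a row and 56 were tested. edgeR without the block called 0 of the 56, against 0.655% of all genes. At an unadjusted p under 0.05 it held 10 (17.9%), against 11.1% of all genes. DESeq2 called 1, Slc16a6, against 2.44% of all genes that it tested. With the replicate block 3 rose and 3 fell, 10.7% of the 56 against 4.63% of all genes. Slc16a6, a monocarboxylate transporter gene, rose, at 48.6, 46.1 and 66.6 CPM across CD25-high libraries, against 19.6, 26.1 and 29.0 CPM across CD25-low ones (log2 fold change 1.11 ± 0.25, edgeR adjusted p 0.102 unblocked and 0.00723 blocked). Among other hypoxia genes, 1 of 20 rose and 2 fell with the block, where 1.73% of all genes rose and 2.90% fell. Epas1, which encodes HIF-2 alpha, rose, at 35, 105 and 94.4 CPM across CD25-high libraries, against 4.54, 34.6 and 32.0 CPM across CD25-low ones. Its log2 fold change was 1.71 ± 0.63 without the block (edgeR adjusted p 0.340) and 1.985 ± 0.264 with it (6.96e-04). Its direction was thus opposite to that of Hif1a, and its libraries numbered 1 were the lowest of each group. Of 12 myeloid markers, 7 had rows, with sums of 27.5 to 92.3 CPM across CD25-high and 13.3 to 43.6 CPM across CD25-low libraries. Itgam, at 21.1, 77.2 and 71.6 CPM across CD25-high libraries, against 5.03, 26.3 and 32.1 CPM across CD25-low ones, was the largest part of that sum except in CD25-low library 1, where Cd68 was at 5.20 CPM. Of the 4 tested myeloid markers, Itgam alone was called with the block (log2 fold change 1.57, edgeR adjusted p 0.0013). Csf1r and Xcr1 went the same way, with means of 2.25 and 2.17 CPM in CD25-high and 1.43 and 1.09 CPM in CD25-low libraries. Cd68 and Lyz2 went against Itgam, with means of 5.23 and 0.219 CPM in CD25-high and 6.47 and 0.469 CPM in CD25-low libraries. Fcgr3 and S100a9, both near 0, also went against it. Adgre1, Cd14, S100a8, Ly6g and Clec9a had no row, and the part of such cells in the Epas1 result was not tested.

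Bnip3l, a mitophagy receptor related to Bnip3, fell with the block, at 17.8, 29.4 and 24.6 CPM across CD25-high libraries, against 34.3, 42.3 and 52.2 CPM across CD25-low ones (-0.84 ± 0.27, edgeR adjusted p 0.267, and 0.0424 with the block). Ddit4, which encodes the mTORC1 inhibitor REDD1, fell as well, at 3.29, 8.04 and 10.5 CPM across CD25-high libraries, against 7.93, 23.2 and 32.5 CPM across CD25-low ones (-1.54 ± 0.54, edgeR adjusted p 0.318, and 0.00998 with the block). Both were lower in the CD25-high library of every pair. Among 6 tested regulators of glucose use, Myc rose and Txnip fell with the block, where 1.73% of all genes rose and 2.90% fell. Myc drives transcription of glycolytic genes in activated T cells. It stood at 284, 49.7 and 75.7 CPM across CD25-high libraries, against 90.6, 33.3 and 56.2 CPM across CD25-low ones. Its log2 fold change was 1.19 ± 0.58 without the block (edgeR adjusted p 0.496) and 0.89 ± 0.22 with it (0.0401). Differences within pairs 1, 2 and 3 were 1.65, 0.58 and 0.43. Txnip, which restrains glucose uptake, stood at 9.41, 28.2 and 20 CPM across CD25-high libraries, against 19.1, 52.6 and 51.6 CPM across CD25-low ones (-1.10 ± 0.45, edgeR adjusted p 0.407, and 0.0131 with the block). For Ddit4, Myc and Txnip the groups overlapped, the libraries numbered 1 being the highest of each group for Myc and the lowest for Ddit4 and Txnip. Of 10 other genes of pyruvate entry and 7 of the pentose phosphate pathway none passed in edgeR or DESeq2. At an unadjusted p under 0.05 in edgeR without the block these lists held 0 and 2, against 11.1% of all genes. The smallest p-values there belonged to Dlat (0.56 ± 0.27, edgeR adjusted p 0.490) and Pdhx (0.37 ± 0.27, 0.673), subunits of the pyruvate dehydrogenase complex, and to Shpk (-2.85 ± 1.04, 0.341) and Prps1 (0.75 ± 0.28, 0.348).

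**Figure D5:**
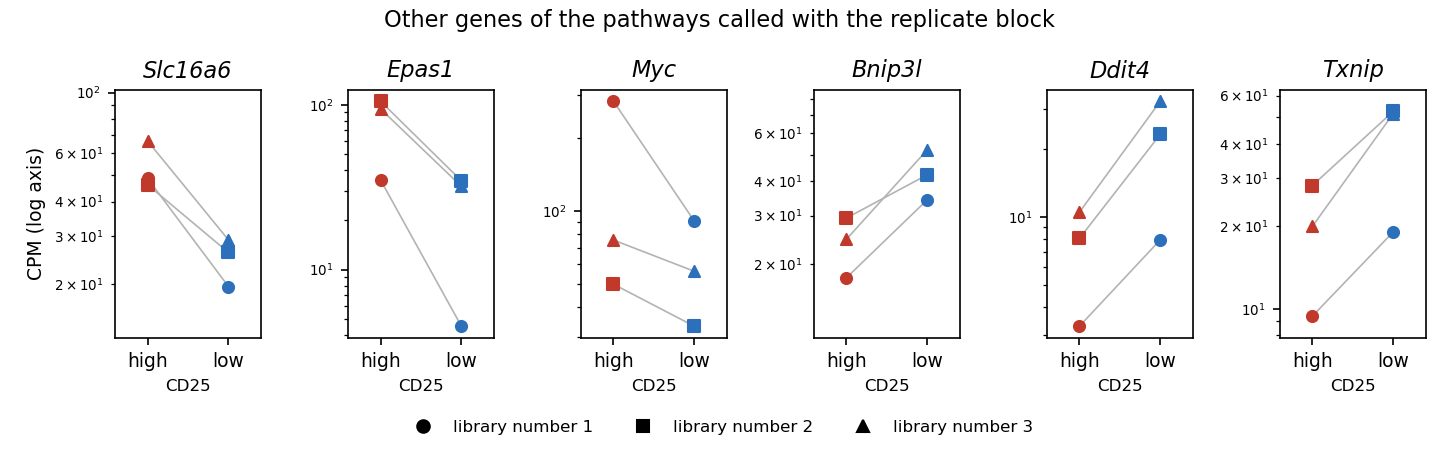
CPM (log axis) of the 6 further genes called with the replicate block, in CD25-high (left, red) and CD25-low (right, blue) libraries, with same-numbered libraries joined. Slc16a6, Epas1 and Myc were higher and Bnip3l, Ddit4 and Txnip lower in the CD25-high library of every pair.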

How the data were processed

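Total RNA went into sequencing libraries through the Ovation RNA-Seq System v2 of NuGEN, per the labels' protocols. The authors deposited raw counts, whole numbers of reads per Ensembl gene. The submitters' processing notes list Novoalign and DESeq2 as tools, mm10 and hg19 as builds, with no version or role. The sources used here do not give the counting tool or the strand setting. The smallest row total is 10. Names, coordinates and exon lengths came from GENCODE mouse release M21, which matched 15169 of 15445 identifiers, and upstream sequences from RefSeq (GRCm38.p6).

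Counts were tested with edgeR 4.0.16 in R 4.3.3 (quasi-likelihood F test, TMM factors, filterByExpr with a minimum count of 10 and total of 15, group as the only term, Benjamini-Hochberg adjustment over 12987 genes, threshold 0.05). SE was derived from F as |log2 fold change| divided by its root. Same-numbered libraries deviated together over the 2000 most variable genes, with correlations of 0.29, 0.15 and 0.12, each above the limit of 0.1. CD25-high library 2 with CD25-low library 3 also passed that limit (0.11). For numbers 2 and 3 the check thus cannot tell same-numbered from other combinations. No label states a pairing, so the numbers were taken as pairs on this limited evidence. Calls made only with the block depend on it. Values from a fit with the number as a block are given where it changes a call and for some other genes. Ratios within a library used two-sided exact permutation tests and, over pairs, exact sign-flip tests. Libraries of the same group differed by more than counting noise, with chi-square values of 27.8 to 98.4 times their degrees of freedom. Alternatives were DESeq2 1.42.0 (group as the only term, without the filterByExpr step), other scalings and filters, and left-out libraries. The genes, lists and alternatives were chosen with earlier results of these data known. All 33 genes are named. Of the other pathway genes, those called with or without the block are named, at most 6 a list in order of p, and in a list with no call its 2 genes of lowest p, with annotated copies of members where they have a row.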

Additional observations from a re-analysis of the deposited data

How the results depend on the processing

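There are 3 libraries a group, and Bnip3, Aldoc, Ldhb and Vegfa have low counts. Of all 12987 genes, 85 passed without the block and 601 with the replicate block (pairing by number). DESeq2 called 376 of the 15429 genes that it tested. The 33 genes held 0, 4 and 3 calls in those fits, and the 56 further pathway genes 0, 6 and 1. TMM against DESeq2-style (RLE) factors, library size alone, no filter, a stricter filter, or removal of the most abundant and mitochondrial genes left 79 to 95 genes called, with 0 members. With the block and pair 1, 2 or 3 left out, 461, 486 and 536 genes, 4, 3 and 3 members and 5, 4 and 4 further genes were called. Leaving out 1 library in the fit without the block gave 22 genes (without CD25-low library 2) to 130 genes (without CD25-high library 1), 0 to 1 members (Hk2, without CD25-low library 1) and 0 further genes. Without both libraries numbered 1 and with no block, an alternative chosen after seeing the data, it gave 380 genes, 2 members (Slc2a3 and Hk2) and 5 further genes. The cause of these differences was not tested.

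Hk2, Eno1, Ero1l, Pdk1, Hif1a, Egln3 and Bnip3 kept their direction under every alternative run. Of 560 recomputed log2 fold changes of members, 43 changed sign, in 14 genes that were near 0 and called in no fit. With the replicate block this was Tpi1 (-0.01). With the block and pair 1 left out it was Pfkl (0.02), G6pdx (-0.01), Pgd (0.07) and Taldo1 (0.02), with pair 2 left out Aldoa (-0.14), Tpi1 (-0.11), Gapdh (0.23), Pgk1 (-0.06), Pdha1 (0.02) and Tkt (-0.05), and with pair 3 left out Gpi1 (0.02), Pfkl (0.07), Pfkp (-0.09), Tpi1 (-0.25), Gapdh (0.04), Pgk1 (-0.02) and P4ha1 (0.07). Without both libraries numbered 1 and with no block it was G6pdx (-0.01), Pgd (0.02) and Taldo1 (0.02). With 1 library left out, the ranges that crossed 0 were Gpi1 (-0.35 to 0.02), Pfkl (-0.20 to 0.26), Pfkp (-0.05 to 0.19), Aldoa (-0.20 to 0.20), Tpi1 (-0.31 to 0.27), Gapdh (-0.50 to 0.10), Pgk1 (-0.14 to 0.27), Pgam1 (-0.39 to 0.02), Pdha1 (-0.42 to 0.02), P4ha1 (-0.30 to 0.04), Tkt (-0.03 to 0.21) and Taldo1 (-0.10 to 0.05). Among count ratios, those of Slc2a1 to Slc2a3 (-0.94 to 0.06), Pfkp to Pfkl (-0.22 to 0.40) and Pfkm to Pfkl (-0.13 to 1.08) did. The cause was not tested.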

Other observations

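Retrogenes and pseudogenes named after members had few reads of their own in the table. Pgk1-rs7 had 34, 27 and 45 counts in CD25-high and 61, 43 and 41 counts in CD25-low libraries. Eno1b had 4 to 15 counts in CD25-high and 5 to 9 counts in CD25-low libraries. Gapdh-ps14 had 7 to 9 counts in CD25-high and 9 to 12 counts in CD25-low libraries, and Aldoart1 had 6 to 8 counts in CD25-high and 6 to 14 counts in CD25-low libraries.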
